A study of Mus musculus with 20 samples.

Results

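The renin-angiotensin genes followed here are Ren1, Agt, Ace, Agtr1a, Enpep, Mme, Atp6ap2 and Lnpep, 8 genes picked by name from the 19940 in a table of mouse kidney RNA. The rule used names, not values. All 8 passed the filter on low values and were among the 14630 genes tested. The kidneys came from 20 male mice, 1 library per mouse, in 4 groups of 5: Tert+/+ and G3 Tert-/- (telomerase-deficient, generation 3) at 7 weeks, and the same genotypes at 47 weeks. The labels name no strain, litter or treatment beyond genotype and age, and p-values set differences against the spread between these mice. Sample numbers in the labels run in a separate block for each group. Any batch that follows them cannot be told apart from age or genotype. Polyadenylated RNA was read at its 3′ end in the sense direction, and each value is a normalized read count, meaning reads divided by 1 size factor per library.

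The renin-angiotensin system controls blood pressure and salt balance. Renin, made in the kidney by juxtaglomerular cells, cuts angiotensinogen to angiotensin I, which angiotensin-converting enzyme trims to angiotensin II. Angiotensin II acts mainly through the AT1 receptor, while other peptidases shorten or redirect the peptides. In the kidney the system also works locally, since tubule cells carry angiotensinogen, converting enzyme and several of the peptidases on their brush border.

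Depth ran from 7161690 to 9757594 reads per library. Tert itself was scarce, at 4.21 to 15.7 in young Tert+/+, 0.979 to 5.65 in young G3 Tert-/-, 7.25 to 16.9 in old Tert+/+ and 5.11 to 8.31 in old G3 Tert-/- mice. Since reads from the 3′ end need not cover what was deleted, these levels are a weak check of genotype. On the first principal component (22.0% of the variance), replicate 1 of the young and replicate 4 of the old Tert+/+ mice scored 67.5 and 56.6, against -39.4 to 21.0 in the other 18, and are called the libraries that stood apart. Replicate numbers only name mice. All 10 listed proximal tubule markers were above 0, with summed levels of 56199 to 82240 over the 20 libraries.

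The results turn mainly on Ace and, for spread between mice, on Ren1, so the sequences around their starts are shown. Ace lies on chromosome 11 from 105967945 to 105989964 (plus strand, GRCm38, GENCODE). It has 3 coding forms: a long form from 105967945 to 105989964, a form from 105971323 to 105989260, and a shorter form with an internal start, known from male germ cells, from 105975208 to 105989253. The table holds 1 value per gene, so these forms cannot be told apart here. Windows are shown for the longest and the shortest. Ren1 lies on chromosome 1 from 133350510 to 133360325 (plus strand). Each window is 300 bases from RefSeq (GRCm38.p6, plus strand), 250 before the annotated start and 50 after it. Capitals mark matches on either strand to the TATA box (TATAAA), the GC box (GGGCGG) or the CCAAT box, and a match on the reverse strand appears as its reverse complement.
Ace long form, chr11:105967698-105967997: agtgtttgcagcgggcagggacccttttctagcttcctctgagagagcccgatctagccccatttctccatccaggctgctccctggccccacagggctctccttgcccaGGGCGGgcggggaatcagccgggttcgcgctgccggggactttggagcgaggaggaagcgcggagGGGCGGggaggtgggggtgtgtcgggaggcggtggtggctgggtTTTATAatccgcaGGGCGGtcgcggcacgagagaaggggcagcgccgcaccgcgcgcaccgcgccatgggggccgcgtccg
Ace short form, chr11:105974939-105975238: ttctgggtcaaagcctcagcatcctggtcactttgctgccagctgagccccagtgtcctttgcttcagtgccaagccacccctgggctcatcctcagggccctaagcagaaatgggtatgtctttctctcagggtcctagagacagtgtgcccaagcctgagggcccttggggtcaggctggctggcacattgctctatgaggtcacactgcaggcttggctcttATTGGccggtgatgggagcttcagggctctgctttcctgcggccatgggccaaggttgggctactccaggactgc
Ren1, chr1:133350424-133350723: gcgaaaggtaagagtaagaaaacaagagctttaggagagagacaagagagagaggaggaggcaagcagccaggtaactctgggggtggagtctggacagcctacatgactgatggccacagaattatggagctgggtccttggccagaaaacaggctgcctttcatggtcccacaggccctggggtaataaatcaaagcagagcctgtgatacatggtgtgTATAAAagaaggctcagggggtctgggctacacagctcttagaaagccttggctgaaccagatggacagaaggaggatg
The long-form window of Ace held 3 GC boxes and 1 TATA box, the latter on the reverse strand. The short-form window held 1 CCAAT box on the reverse strand, and the Ren1 window held 1 TATA box. Among 32851 windows of the same length, a TATA box was found in 13.6%, a GC box in 35.7% and a CCAAT box in 37.4%. The cAMP response element (TGACGTCA) had no match in these 3 windows and was found in 1.79% of all windows. These matches are descriptions of the letters and say nothing of what binds there. Windows were found for 7 of the 8 genes.

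1 of the 8 genes passed the test, in 1 comparison. That gene was Ace, which was lower at 47 than at 7 weeks in G3 Tert-/- mice. The test was limma on log2(normalized count + 1), with Benjamini-Hochberg adjustment over all 14630 genes and a threshold of 0.05. Over all genes, 0.0957% passed for genotype at 47 weeks, 0% for genotype at 7 weeks, 0.649% for age in Tert+/+, 2.24% for age in G3 Tert-/- and 0.00684% for the genotype-by-age interaction. The 8 genes had medians between -0.04 and 0.00 on the log2 scale in every comparison, 4 positive and 4 negative each time, beside a median over all genes of 0.00 to 0.01. The values of the groups compared did not overlap for 1 of the 8 genes by genotype at 47 weeks (2.31% of all genes), for 0 by genotype at 7 weeks (1.4%), for 0 by age in Tert+/+ (2.53%) and for 3 by age in G3 Tert-/- mice (4.6%).

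**Figure D1:**
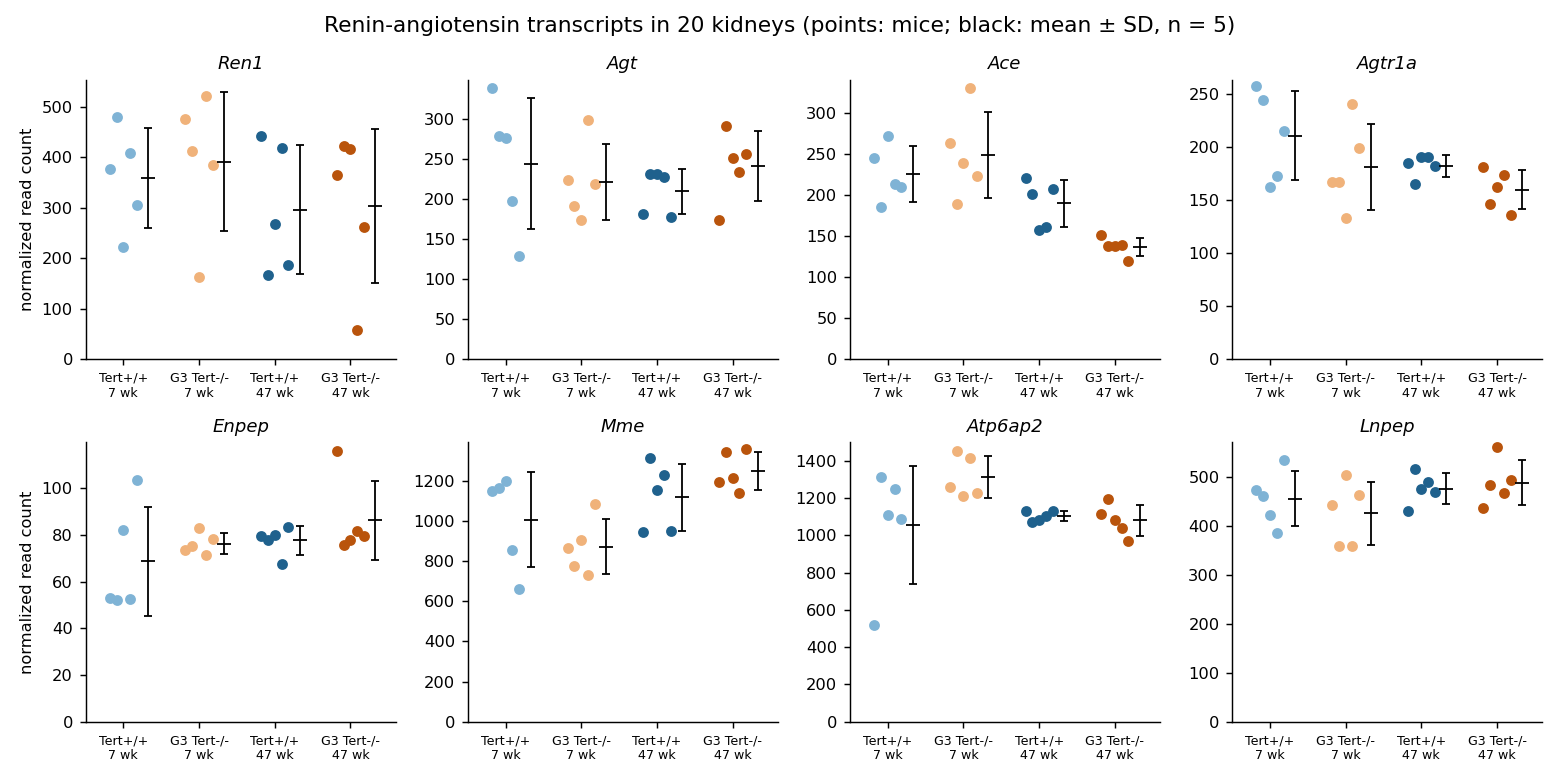
Normalized read counts (vertical axis, from 0) of the 8 genes in each of 20 mice (points), with the mean ± SD of each group of 5 in black. The 5 G3 Tert-/- mice at 47 weeks lie at 120.2 to 151.1 for Ace, below all 15 others, while Ren1 runs from 57.2 to 521.5 with every group overlapping.

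Renin, the enzyme that starts the cascade, had the largest within-group spread of the 8 when pooled over the 4 groups. Among young Tert+/+ mice alone its coefficient of variation, 27.6%, was below those of Enpep (33.9%), Agt (33.4%) and Atp6ap2 (29.9%). Ren1 counts at 7 weeks were 376.9, 480.3, 222.0, 407.6 and 304.6 in Tert+/+ and 475.1, 413.0, 162.9, 521.5 and 384.8 in G3 Tert-/- kidneys. In the older mice they were 441.4, 167.5, 267.8, 417.8 and 185.8 in Tert+/+ and 364.4, 422.6, 415.5, 57.2 and 260.7 in G3 Tert-/- kidneys. All 4 groups overlapped, and 1 mouse, G3 Tert-/- old replicate 4, stood lowest of the 20. The pooled within-group SD was 0.79 on the log2 scale, larger than in 96.4% of tested genes and than in 99.2% of the 3728 genes with a mean level within 2-fold of Ren1. This SD includes that mouse, whose group had a coefficient of variation of 50.1%, against 27.6% to 43.2% in the others. The SD and its ranks without that mouse were not computed. Group means were 358 ± 98.9 and 391 ± 138 at 7 weeks and 296 ± 128 and 304 ± 152 at 47 weeks (SD, n = 5, Tert+/+ first). The log2 fold changes were 0.07 (SE 0.43, adjusted p = 0.960) for genotype at 7 weeks and -0.14 (SE 0.43, adjusted p = 0.970) at 47 weeks, with a 95% interval of -1.02 to 0.75 for the latter. Between ages they were -0.34 in Tert+/+ and -0.55 in G3 Tert-/- mice (adjusted p = 0.827 and 0.604). Leaving out 1 mouse moved the first to between -0.51 and -0.16 and the second to between -0.84 and -0.020, the latter without G3 Tert-/- old replicate 4. For genotype at 47 weeks, changes of any size inside the 95% interval given above remained compatible with these counts. Ren2, a close copy of renin that some mouse strains carry, has no row in the table, so how reads of such a copy would have been counted was not tested.

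Akr1b7, an aldo-keto reductase made by renin cells and by adrenal cortex, was lowest in the 3 mice with the least Ren1. Its counts were 7.15 in G3 Tert-/- old replicate 4, 8.87 in Tert+/+ old replicate 2 and 11.3 in G3 Tert-/- young replicate 3, where Ren1 was 57.2, 167.5 and 162.9. The pair was chosen after its values were seen. Over the deviations of 20 mice from their group means, Pearson's r was 0.48 (permutation p = 0.0163) and Spearman's rho 0.56 (permutation p = 0.0119). Without the 2 mice whose Ren1 deviations lay farthest from their median, r was 0.26. Tert+/+ young replicate 5 held 133.8 of Akr1b7 and 460.2 of Star, an adrenal steroid gene that was at most 20.8 in the other 19. Leaving out that library was also chosen after its values were seen. Without it, r was 0.80 (permutation p = 0.00112) and rho 0.71 (permutation p = 0.00137, n = 19), and r = 0.62 without the 2 farthest mice. The pair and the omission were picked from the same values, so these p-values are no independent test. The list of renin cell markers and regulators of renin secretion held 17 genes, of which 14 were tested and 0 passed in any comparison. Adrb1, the beta-adrenergic receptor that drives renin release, was 45.3 and 61.0 in young and old Tert+/+ mice and 52.3 and 72.5 in young and old G3 Tert-/- mice (log2 fold change 0.45 and 0.46, adjusted p = 0.405 and 0.264).

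**Figure D2:**
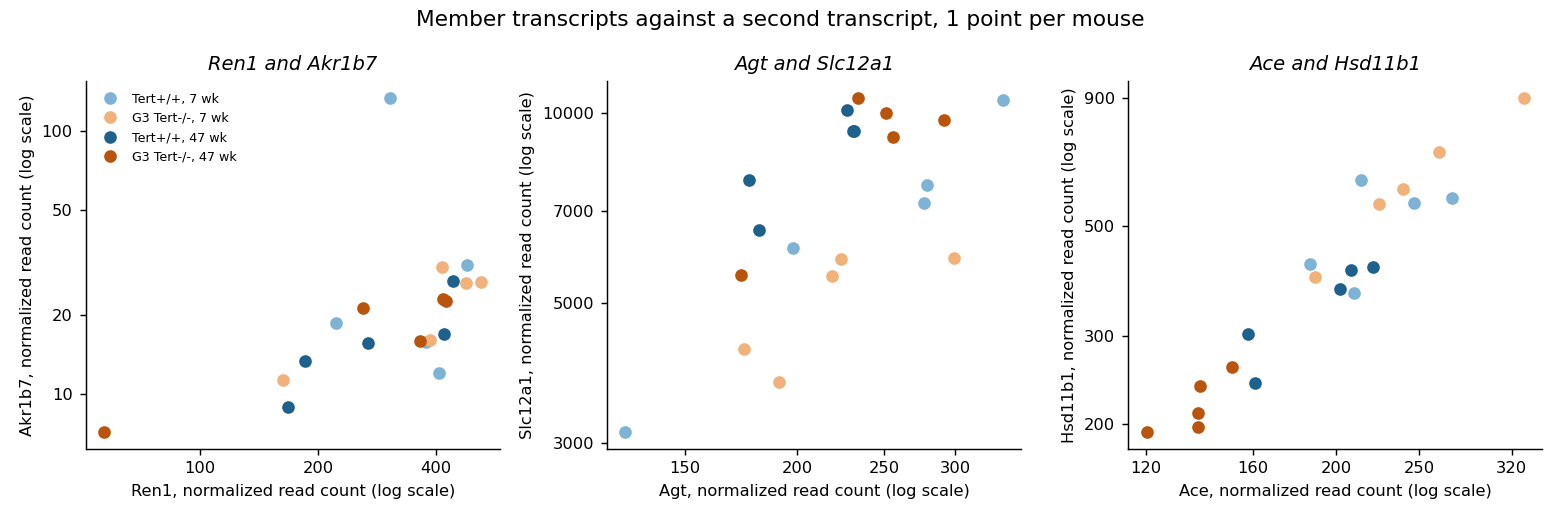
Normalized read counts of Ren1 against Akr1b7, Agt against Slc12a1 and Ace against Hsd11b1 (both axes logarithmic), 1 point per mouse, coloured by group. The mouse with 57.2 of Ren1 also has the least Akr1b7, 7.15, and the point at 133.8 of Akr1b7 is the library with 460.2 of Star.

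Agt, which encodes the substrate angiotensinogen (chromosome 8, 124556534 to 124569706, minus strand), did not pass in any comparison. Counts at 7 weeks were 338.5, 278.7, 276.8, 197.8 and 128.7 in Tert+/+ and 223.5, 190.8, 174.3, 299.0 and 218.7 in G3 Tert-/- kidneys. Values at 47 weeks were 181.3, 231.5, 230.8, 227.5 and 176.9 in Tert+/+ and 173.2, 291.6, 251.4, 233.9 and 255.6 in G3 Tert-/- kidneys. The young Tert+/+ group held both the highest and the lowest mouse of the 20. Log2 fold changes ran from -0.15 (age in Tert+/+) to 0.19 (genotype at 47 weeks, SE 0.20), with adjusted p from 0.828 to 0.896. With 1 mouse left out, the age value in Tert+/+ mice was -0.017 (without young replicate 1) to -0.36 (without young replicate 5), and the genotype value at 47 weeks 0.12 to 0.31. The 3 genes whose deviations from the group means were most like those of Agt were Kng2, a kininogen (r = 0.92), Slc12a1, the sodium-potassium-chloride cotransporter of the thick ascending limb (r = 0.92), and Rbmx, an RNA-binding protein (r = 0.90), each over 20 libraries that share depth and dissection. Without both libraries that stood apart, r was 0.93 for Kng2, 0.90 for Slc12a1 and 0.92 for Rbmx (n = 18). The mouse with the least Agt was Tert+/+ young replicate 5, the library with 460.2 of Star. In it Slc12a1 was 3123 and the summed thick ascending limb markers 9868, the lowest of the 20. In the mouse with the most, Tert+/+ young replicate 1, a library that stood apart, they were 10520 and 34363. The part of this in the spread of Agt was not tested. Alb, the hepatocyte gene, was 461.7 in Tert+/+ old replicate 4 and at most 89.8 elsewhere, and Agt in that library was 227.5, inside the range of its group.

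Ace, the converting enzyme of endothelium and proximal tubule, was lowest in old G3 Tert-/- kidneys. Counts at 7 weeks were 246.0, 186.1, 272.9, 213.5 and 209.5 in Tert+/+ and 263.4, 188.9, 239.2, 330.5 and 224.0 in G3 Tert-/- kidneys. In old mice the counts were 220.7, 202.0, 157.7, 161.0 and 208.1 in Tert+/+ and 151.1, 138.1, 138.2, 138.9 and 120.2 in G3 Tert-/- kidneys. All 5 old G3 Tert-/- mice lay below each of the other 15, whose lowest value was 157.7. Group means, from high to low, were 249 ± 52.9 (young G3 Tert-/-), 226 ± 34.0 (young Tert+/+), 190 ± 28.7 (old Tert+/+) and 137 ± 11.0 (old G3 Tert-/-), and no neighbours in that order passed the test. In bulk kidney RNA, fewer cells of a type and less RNA per cell cannot be told apart.

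Between 7 and 47 weeks, Ace fell 1.78-fold in G3 Tert-/- mice (log2 fold change -0.83, SE 0.14, limma adjusted p = 0.00158). It passed in all 18 alternatives for this comparison, including 10 in which 1 mouse was left out, with adjusted p from 6.5e-06 to 0.00695. In Tert+/+ mice the log2 fold change was -0.25 (SE 0.14, adjusted p = 0.557). The difference between these changes, the genotype-by-age interaction, was -0.59 (SE 0.20), with an unadjusted p of 0.0077 and an adjusted p of 0.774 over all genes, so a different change with age in the 2 genotypes was not established.

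At 47 weeks, Ace was 1.37-fold lower in G3 Tert-/- than in Tert+/+ mice (log2 fold change -0.46, SE 0.14, unadjusted p = 0.00391, adjusted p = 0.436). The groups did not overlap. It passed in 1 of 18 alternatives, limma with array quality weights (adjusted p = 0.0498). Across the 18 the log2 fold change stayed between -0.52 and -0.40 and the adjusted p between 0.0498 and 0.792. At 7 weeks the value was 0.13 (SE 0.14, adjusted p = 0.732) and the groups overlapped.

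**Figure D3:**
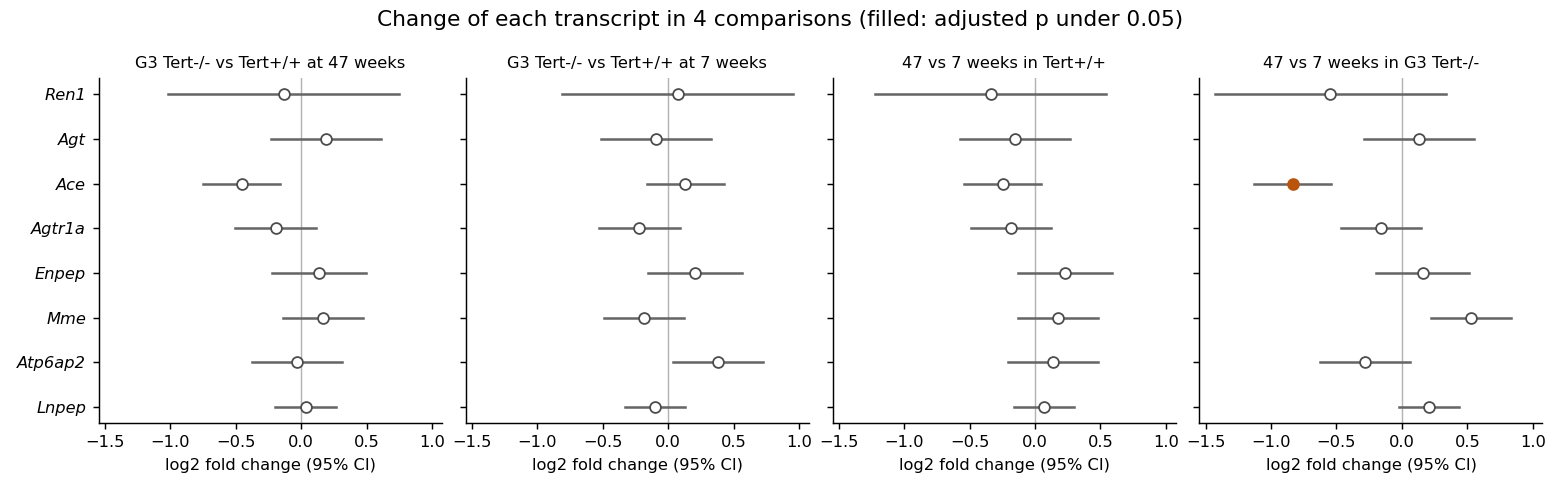
Log2 fold changes (horizontal axis) of the 8 genes with 95% intervals in the genotype comparisons at 47 and 7 weeks and the age comparisons in Tert+/+ and G3 Tert-/- mice, from 1 limma model over 20 libraries. Filled points have an adjusted p under 0.05, which holds for Ace between ages in G3 Tert-/- mice (-0.83) and for no other point.

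Cell type markers were set beside the fall of Ace. Of 10 proximal tubule markers, 6 were higher and 4 lower at 47 than at 7 weeks in G3 Tert-/- mice (median log2 fold change 0.01), and their summed level was 56960 to 69490 in young and 56199 to 65500 in old mice. 2 of them fell, Slc22a6, an organic anion transporter (-0.69, SE 0.18, adjusted p = 0.0399), and Slc5a2, the glucose transporter SGLT2 (-0.58, SE 0.15, adjusted p = 0.0338). Endothelial markers had 3 of 8 higher and 5 lower (median -0.02), with 0 passing and summed levels of 2656 to 2922 in young and 2337 to 2853 in old mice. Hepatocyte markers summed to 1371 to 2229 (median 1808) in young and 754 to 1270 (median 1198) in old G3 Tert-/- mice, without overlap. Of the 9 tested, 4 were higher and 5 lower in old mice, and 1 passed in each direction. Ttr, which held most of the summed level in young mice, fell from a mean of 1494 to 572. Serpina1a rose from 66.4 to 251, so the lower sum does not describe the list as a whole. Podocyte markers had medians of 1604 in young and 1417 in old mice, and vascular smooth muscle and mesangium markers 1520 and 1579, both with overlap. 4 other lists had higher median summed levels in old than in young G3 Tert-/- mice. For thick ascending limb markers the range was 12951 to 21425 (median 14770) in young and 18112 to 26506 (median 21589) in old mice, and 0 of 6 passed. Distal tubule and collecting duct markers summed to 8384 to 9932 (median 9010) and 9507 to 11848 (median 11589). Of these 8, Slc12a3, the thiazide-sensitive cotransporter, rose (0.62, SE 0.11, adjusted p = 0.00251) and Calb1, a calcium-binding protein, fell (-0.61, SE 0.15, adjusted p = 0.0327). Macrophage markers ran from 1256 to 2442 (median 1535) in young and 1847 to 2534 (median 2376) in old mice. Of these, 8 of 8 were positive (median log2 fold change 0.43), beside 50.5% of all genes, and 0 passed. B and plasma cell markers were 277 to 937 (median 423) in young and 408 to 9611 (median 1869) in old mice, with 0 of 6 passing. In each of these 4 lists the young and old G3 Tert-/- groups overlapped. In Tert+/+ mice the same 4 medians were also higher at 47 weeks. Of these lists, B and plasma cell markers did not overlap there, at 92.6 to 607 in young and 2972 to 9386 in old mice. Igha, Igkc and Jchain passed in Tert+/+ mice, each higher at 47 weeks, as did Slc12a3 of the distal list. Ace had -0.25 in Tert+/+ mice (SE 0.14, limma adjusted p = 0.557). A list of 12 androgen-responsive kidney genes was chosen with earlier results of these data known, so its counts are no independent result. Between ages in G3 Tert-/- mice, 6 of the 12 fell: Acsm3, Gusb, Hsd17b11, Nudt19, Odc1 and Slco1a1 (list median -0.64). Over all genes 2.24% passed in that comparison. In Tert+/+ mice 1 of the 12 passed in each direction (median -0.18), beside 0.649% of all genes. By genotype at 47 weeks, 4 of the 12 passed, each lower in G3 Tert-/- mice, beside 0.0957% of all genes. The part of these markers in the fall of Ace was not tested. An antisense gene, Gm11651, overlaps Ace on the opposite strand, and the reads are strand-specific per the labels' protocols.

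The genes most like Ace in their deviations from group means were Hsd11b1, which regenerates active glucocorticoid (r = 0.86 over 20 libraries), Pex7, a peroxisomal import receptor (r = 0.80), and Fuca2, a fucosidase (r = 0.79). Hsd11b1 was 629 ± 188 in young and 220 ± 29.0 in old G3 Tert-/- kidneys, a fall of 2.76-fold (log2 fold change -1.47, SE 0.19, adjusted p = 4.89e-05). Fuca2 fell 1.51-fold (-0.59, SE 0.11, adjusted p = 0.00239), and Pex7 had -0.09 (adjusted p = 0.847). Over the levels themselves, group differences included, r was 0.96 for Hsd11b1, 0.94 for Fuca2 and 0.59 for Pex7.

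Agtr1a, which encodes the AT1a receptor for angiotensin II (chromosome 13, 30336441 to 30382867, plus strand), did not pass in any comparison. Counts at 7 weeks were 256.8, 244.0, 162.4, 172.8 and 214.6 in Tert+/+ and 167.1, 166.4, 132.8, 240.0 and 198.3 in G3 Tert-/- kidneys. Old mice had 184.5, 164.5, 189.9, 190.3 and 181.4 in Tert+/+ and 180.6, 146.3, 162.0, 173.6 and 135.4 in G3 Tert-/- kidneys. At each age the G3 Tert-/- mean was the lower, but the groups overlapped in all 4 comparisons. The log2 fold changes were -0.22 at 7 weeks and -0.20 at 47 weeks (SE 0.15 each, adjusted p = 0.559 and 0.862), and -0.33 to -0.12 and -0.24 to -0.14 with 1 mouse left out. Tert is on the same chromosome, from 73626911 to 73649843, and Gm48161, a gene inside an intron of Agtr1a, is on the same strand. Agtr1b and Agtr2, which encode the other angiotensin II receptors, have no row in the table. Mas1, the receptor for angiotensin 1-7, was near the limit of 3 reads, with group means of 7.63 and 10.7 at 7 weeks and 5.12 and 3.94 at 47 weeks (Tert+/+ first) and 1 old G3 Tert-/- mouse at 0. Agtrap, which binds the AT1 receptor and promotes its internalization, was 753 in young and 602 in old G3 Tert-/- mice (log2 fold change -0.32, SE 0.09, adjusted p = 0.0529). Its groups did not overlap. In Tert+/+ mice it was 767 and 662 (-0.21, adjusted p = 0.364).

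Atp6ap2, the prorenin receptor and an accessory subunit of the vacuolar proton pump (chromosome X, 12587801 to 12617049, plus strand), had 1 young Tert+/+ mouse far below the rest. Counts at 7 weeks were 516.6, 1316, 1109, 1247 and 1090 in Tert+/+ and 1259, 1452, 1211, 1417 and 1229 in G3 Tert-/- kidneys. The 47-week counts were 1132, 1074, 1082, 1106 and 1131 in Tert+/+ and 1112, 1195, 1082, 1040 and 972.0 in G3 Tert-/- kidneys. The low value was in young replicate 1, a library that stood apart. All 5 old G3 Tert-/- mice lay below all 5 young ones, but the change of -0.28 (SE 0.17) did not pass (adjusted p = 0.451). The genotype difference at 7 weeks was 0.38 (SE 0.17, unadjusted p = 0.0307, adjusted p = 0.451). It was 0.14 (adjusted p = 0.787) without young Tert+/+ replicate 1, and 0.34 to 0.48 with any other mouse left out. The genes most like Atp6ap2 were mt-Nd4, a mitochondrial complex I subunit (r = 0.96), Coprs (r = 0.96) and Psmd3, a proteasome subunit (r = 0.95). Without both libraries that stood apart, these were 0.71, 0.77 and 0.64 (n = 18). Of 21 other subunits of the pump, 0 passed in any comparison. Negative values between ages were found for 17 of 21 in Tert+/+ and 18 of 21 in G3 Tert-/- mice (median -0.09 in each). Over all genes, 50.7% of values were above 0 in the first of these comparisons and 50.5% in the second.

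The 3 remaining genes encode peptidases that take angiotensin peptides further. Mme, neprilysin, which makes angiotensin 1-7 from angiotensin I and is abundant on the brush border (chromosome 3, 63241537 to 63386030, plus strand), came closest to the threshold after Ace. Its counts at 7 weeks were 1146, 1163, 1201, 856.8 and 660.5 in Tert+/+ and 863.9, 773.1, 907.1, 730.8 and 1086 in G3 Tert-/- kidneys. Among old mice they were 944.0, 1312, 1153, 1229 and 949.2 in Tert+/+ and 1193, 1343, 1214, 1137 and 1356 in G3 Tert-/- kidneys. All 5 old G3 Tert-/- mice lay above all 5 young ones, opposite in direction to Ace. The log2 fold change was 0.53 (SE 0.15, adjusted p = 0.0627), and it passed in 4 of 18 alternatives, with adjusted p from 0.0201 to 0.161. In Tert+/+ mice it was 0.18 (SE 0.15, adjusted p = 0.716), or 0.033 without young replicate 5, and the interaction was 0.35 (SE 0.21, adjusted p = 0.819). The genes most like Mme were Slco4c1, an organic anion transporter of the tubule (r = 0.82), Plcxd1 (r = 0.81) and Ttll5 (r = 0.80). Plcxd1 was a low gene, with group means of 8.87 to 13.4.

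Enpep, aminopeptidase A, which turns angiotensin II into angiotensin III (chromosome 3, 129269175 to 129332720, minus strand), had its lowest values among young Tert+/+ mice. Counts there were 53.1, 52.1, 82.2, 52.7 and 103.5, against 73.6, 75.4, 82.9, 71.4 and 78.2 in young G3 Tert-/-, 79.8, 77.8, 79.8, 67.6 and 83.5 in old Tert+/+ and 116.2, 75.7, 77.9, 81.7 and 79.8 in old G3 Tert-/- kidneys. The groups overlapped in every comparison. Log2 fold changes ran from 0.13 to 0.23 over the 4 comparisons (SE 0.17, adjusted p from 0.642 to 0.920). Without G3 Tert-/- old replicate 1, the mouse at 116.2, the genotype difference at 47 weeks went from 0.13 to 0.023 and the age difference in G3 Tert-/- mice from 0.16 to 0.047. Without Tert+/+ young replicate 5, the mouse at 103.5, the genotype difference at 7 weeks went from 0.21 to 0.37 and the age difference in Tert+/+ mice from 0.23 to 0.39. The genes most like Enpep were Mccc1, a mitochondrial carboxylase subunit of leucine breakdown (r = 0.88), Net1 (r = 0.84) and Etfa, an electron transfer flavoprotein subunit (r = 0.84).

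Lnpep, the insulin-regulated aminopeptidase that binds angiotensin IV (chromosome 17, 17521410 to 17625050, minus strand), had the smallest pooled within-group spread of the 8. Counts at 7 weeks were 473.3, 461.0, 422.5, 386.3 and 536.0 in Tert+/+ and 442.4, 360.1, 504.9, 358.8 and 463.0 in G3 Tert-/- kidneys. The older mice had 431.1, 516.2, 475.2, 491.0 and 470.7 in Tert+/+ and 436.3, 484.0, 560.9, 467.7 and 495.1 in G3 Tert-/- kidneys. The pooled within-group SD was 0.16 on the log2 scale, and the highest of 20 mice was 1.56-fold the lowest. The change between ages in G3 Tert-/- mice was 0.21 (SE 0.11, adjusted p = 0.399), the farthest from 0 of the 4 comparisons.

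Other genes of the pathway did not pass in any comparison. Of 19 genes listed, 12 had a row and 11 were tested. Between ages in G3 Tert-/- mice 10 of the 11 had negative values (median -0.27), and in Tert+/+ mice 8 of 11 (median -0.11). Over all genes, 50.5% of values were above 0 in G3 Tert-/- and 50.7% in Tert+/+ mice. Dpp3, which degrades angiotensin II, was 179 in young and 142 in old G3 Tert-/- mice (-0.33, SE 0.15, adjusted p = 0.294), and 133 and 137 in young and old Tert+/+ mice (0.07, adjusted p = 0.907). Ctsa, cathepsin A, was 905 and 738 in G3 Tert-/- mice (-0.27, adjusted p = 0.232) and 819 and 783 in Tert+/+ mice (-0.07, adjusted p = 0.876). Thop1, which makes angiotensin 1-7, had 0.19 in G3 Tert-/- mice (adjusted p = 0.828), the 1 positive value there, and -0.57 in Tert+/+ mice (adjusted p = 0.502). Klk1, the kallikrein that frees kinins, was 5928 in old G3 Tert-/- and 4954 in old Tert+/+ mice, without overlap (0.27, SE 0.14, adjusted p = 0.782). At 7 weeks it was 7545 and 6315, with overlap (0.27, adjusted p = 0.483). Anpep, aminopeptidase N, which acts on angiotensin III, was 50.2 in Tert+/+ young replicate 1 and 57.4 in Tert+/+ old replicate 4, the 2 libraries that stood apart, and 211.2 to 724.2 in the other 18.

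Of 8 brush border peptidases tested, 7 had negative values between ages in G3 Tert-/- mice (median -0.39), and 1 fell, Dpep1, a dipeptidase, from 1102 to 748 (-0.56, SE 0.14, adjusted p = 0.0347). In Tert+/+ mice 5 of the 8 were negative (median -0.16), and Dpep1 had -0.23 (adjusted p = 0.586). Over all genes, 50.5% of values between ages were above 0 in G3 Tert-/- and 50.7% in Tert+/+ mice. Anpep is counted both here and among the other genes of the pathway. Mme, on the same membrane, had 0.53 in G3 Tert-/- mice. Of 9 genes of the aldosterone pathway, which angiotensin II stimulates, 0 passed in any comparison. Sgk1, a kinase induced by aldosterone, was 406 ± 158 in young and 215 ± 40.0 in old Tert+/+ mice (SD, n = 5), with overlap (-0.83, SE 0.23, limma adjusted p = 0.106). In G3 Tert-/- mice it was 239 ± 52.7 and 262 ± 50.8 (0.13, SE 0.23, limma adjusted p = 0.846), and the interaction was 0.96 (SE 0.32, adjusted p = 0.774). Hsd11b2, which shields the mineralocorticoid receptor, was 490 and 441 in Tert+/+ mice (-0.13, adjusted p = 0.812) and 531 and 453 in G3 Tert-/- mice (-0.20, adjusted p = 0.585).

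Among the 8 genes themselves, 28 pairs were compared over deviations of 20 mice from their group means, and 0 pairs passed after adjustment. The pair farthest from 0 was Agt and Enpep (Pearson's r = -0.69, permutation p = 0.0144, adjusted p = 0.223). Spearman's rho was -0.57 (permutation p = 0.0315, adjusted p = 0.252). Without the 2 mice whose Agt deviations lay farthest from their median, r was -0.32, so the size of r depended in part on those mice. Agt and Mme had r = 0.65 (permutation p = 0.0159, adjusted p = 0.223) and rho = 0.54 (permutation p = 0.036, adjusted p = 0.252), with r = 0.46 without the 2 farthest mice.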

How the data were processed

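Kidney RNA of 20 male mice was sequenced with a 3′ kit that keeps strand (QuantSeq), per the labels' protocols. The authors deposited 1 table of signal values, read here as read counts divided by 1 size factor per library: in every library 100% of values were whole multiples of 1 step (tolerance 1e-06). The submitters' processing notes name, without roles, build GRCm38, HTSeq 0.6.1, TopHat2 2.0.10, SAMtools 0.1.19, FastQC 0.11.7, Bowtie 1.0.0 and DESeq2. Genes with a normalized count of 10 or more in at least 5 libraries were tested with limma 3.58.1 (trend, R 4.3.3) on log2(value + 1), in 1 model of 4 group means, checked on simulated data. Fold changes are on that scale and understate changes of low genes. Alternatives were pseudocounts of 0.5 and 5, no filter, TMM scaling, array quality weights, edgeR 4.0.16 and DESeq2 1.42.0 on recovered reads, and leaving out each library or both that stood apart. Correlations used 100000 permutations within groups. Depth limits precision: 3 reads equal a normalized count of 2.49 to 3.38, counting error only.

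The 8 genes and all lists were chosen with earlier results of these data known, and 1 listed gene and the planned comparison that used it are not reported here. Named genes were the 8, list genes that passed (up to 6 per list), Mas1, Agtr1b, Agtr2 and Ren2, and the 3 genes most like each of the 8 by r, leaving out Gm, Rik and identifier names. The r of these most like genes is the highest found among all tested genes, and how high it would reach by chance was not tested. The remaining names, Akr1b7 with Star, Alb, Adrb1, Agtrap, Dpp3, Ctsa, Thop1, Klk1, Anpep, Sgk1 and Hsd11b2, were chosen after their values were seen. Comparisons that share a group are not independent of each other.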

Additional observations from a re-analysis of the deposited data

Results flagged for a closer look

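Of 32 groups of 5 mice examined for the 8 genes, 2 held a mouse whose distance from its nearest neighbour was large against the range of its group, and chance alone gives about 1 in 20. Enpep was 116.2 in G3 Tert-/- old replicate 1, the highest of that group. Atp6ap2 was 516.6 in Tert+/+ young replicate 1, the lowest of its group.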

How the results depend on the processing

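Of the 8 genes, Ace kept its call between ages in G3 Tert-/- mice under every alternative run. The number of genes called there was 1, and it was 2 (Ace and Mme) with array quality weights, with DESeq2 and without both libraries that stood apart. With 1 mouse left out it was 1 to 2, the 2 without G3 Tert-/- young replicate 5 (Mme adjusted p = 0.0343). For genotype at 47 weeks the number was 0, and 1 (Ace) with array quality weights. Values near 0 changed sign. For genotype at 47 weeks, Ren1 was 0.039 with edgeR, 0.041 with DESeq2, 0.017 without both libraries and -0.32 to 0.39 with 1 mouse left out, highest without G3 Tert-/- old replicate 4. With 1 mouse left out, Atp6ap2 was -0.073 to 0.0019 and Lnpep -0.018 to 0.073 in that comparison, and Ren1 -0.087 to 0.36 at 7 weeks. Agt at 7 weeks was 0.046 without both libraries and -0.30 to 0.046 with 1 left out. Atp6ap2 by age in Tert+/+ mice was -0.057 with array quality weights, -0.10 without both libraries and -0.10 to 0.23 with 1 left out, lowest without young replicate 1. For the interaction, Ren1 was -0.50 to 0.32 with 1 left out. Agtr1a was -0.013 with weights, -0.038 without both libraries and -0.080 to 0.13 with 1 left out. Enpep was 0.0051 with edgeR, 0.0069 with DESeq2 and -0.23 to 0.011 with 1 left out. The cause of these shifts was not tested.

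Over all genes, calls for genotype at 47 weeks were 14, 95 with weights and 50 with DESeq2. At 7 weeks limma and edgeR called 0, weights 1 and DESeq2 13, and 1559 genes had an unadjusted p under 0.05. For age, calls were 95 in Tert+/+ mice (367 with weights, 211 with DESeq2) and 327 in G3 Tert-/- mice (1007 with weights, 530 with DESeq2, 661 without both libraries). For the interaction they were 1, 2 with weights, 8 with DESeq2 and 0 without both libraries. Without Tert+/+ young replicate 5, chosen after its values were seen, r of Ren1 with Akr1b7 was 0.80 in place of 0.48. No paired analysis was possible because replicate numbers were given in listing order and pair no mice.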

Other observations

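Genes most like Agtr1a in their deviations from group means were Bap1, a deubiquitinase (r = 0.87 over 20 libraries), Leng8 (r = 0.82) and Vps25, a subunit of an endosomal sorting complex (r = 0.80). Those most like Lnpep were Abcb4, a phospholipid transporter (r = 0.86), Tspyl4 (r = 0.83) and Zhx1, a transcription factor (r = 0.80). Those most like Ren1 were Lhx1os, an antisense transcript of a kidney developmental gene (r = 0.83), Aven (r = 0.77) and Tmem9 (r = 0.76).

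The adrenal cortex list had 2 of 8 genes in the table, Star and Akr1b7. Their summed level was 594.0 in Tert+/+ young replicate 5 and 15.1 to 43.6 in the other 19 libraries. In that library Enpep was 103.5, the highest of its group, Agt was 128.7 and Mme 660.5, each the lowest of its group.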
